A study of Mus musculus with 6 samples.

Results

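Interferon-stimulated genes were followed across 6 RNA-seq libraries of cancer-associated fibroblasts, the stromal cells of a tumour that make and remodel its matrix. The group was defined by a list of 35 gene symbols of the type I and gamma interferon response, and all 35 were found among the 18197 symbols of the count table. The cells were sorted by fluorescence from PyMT mammary tumours, which the polyoma middle T oncogene starts, in C57BL/6 mice, with tumours harvested at 16 to 20 weeks. Of the libraries, 3 are labelled mPGES-1 KO and 3 are labelled WT, and the mice of both groups carried the PyMT oncogene. mPGES-1, microsomal prostaglandin E synthase-1, makes the lipid mediator prostaglandin E2 (PGE2), and the series title asks which transcripts of these fibroblasts depend on PGE2. The promoter of the oncogene, the surface markers of the sort and the number of mice behind a library are not among the labels, so a p-value here covers the spread among libraries alone, and that spread may be technical.

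Interferons are secreted proteins that alert cells to infection and also act in tumours. Type I interferons signal through the receptor pair Ifnar1 and Ifnar2 to a complex that holds Stat2 and Irf9 and binds the interferon-stimulated response element (ISRE) of antiviral genes such as the Ifit and Oas families. Interferon gamma signals through Ifngr1 and Ifngr2 to the gamma-activated site (GAS) of its target genes and, through Irf1, drives the guanylate-binding proteins (GBPs) and the immunity-related GTPases.

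Among the interferon-stimulated genes, 1 member, Irf8, passed the test between libraries labelled mPGES-1 KO and those labelled WT. Irf8, an interferon regulatory factor known for its role in myeloid cells, fell to 6.20 ± 0.170 CPM (counts of a gene scaled to a common library size) in libraries labelled mPGES-1 KO, against 58.7 ± 30.3 CPM in libraries labelled WT (mean ± SD, n = 3 each). Of the 34 members with enough counts to be tested, 0 rose, 1 fell and 33 did not pass an adjusted p of 0.05 in edgeR's quasi-likelihood test, so 2.94% of the members were called, against 2.76% of all 16543 tested genes. The same test called 1.2% of all tested genes higher and 1.56% lower. The median log2 fold change, mPGES-1 KO over WT, was 0.08 over the members and -0.04 over all tested genes. The median of the members was -0.10 without mPGES-1 KO replicate 1, 0.40 without mPGES-1 KO replicate 2, 0.01 without WT replicate 2 and 0.40 without WT replicate 3. Of the members, 19 had a positive and 15 a negative log2 fold change. The unadjusted p was under 0.05 for 6 members, Irf8, Ifi44, Irgm1, Ifit2, Irf1 and Isg15, and for 19.1% of all tested genes. DESeq2 called 1 member higher and 2 lower where it called 13.6% of the genes it adjusted, and limma-voom called 1 higher and 0 lower where it called 11.9%.

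**Figure D1:**
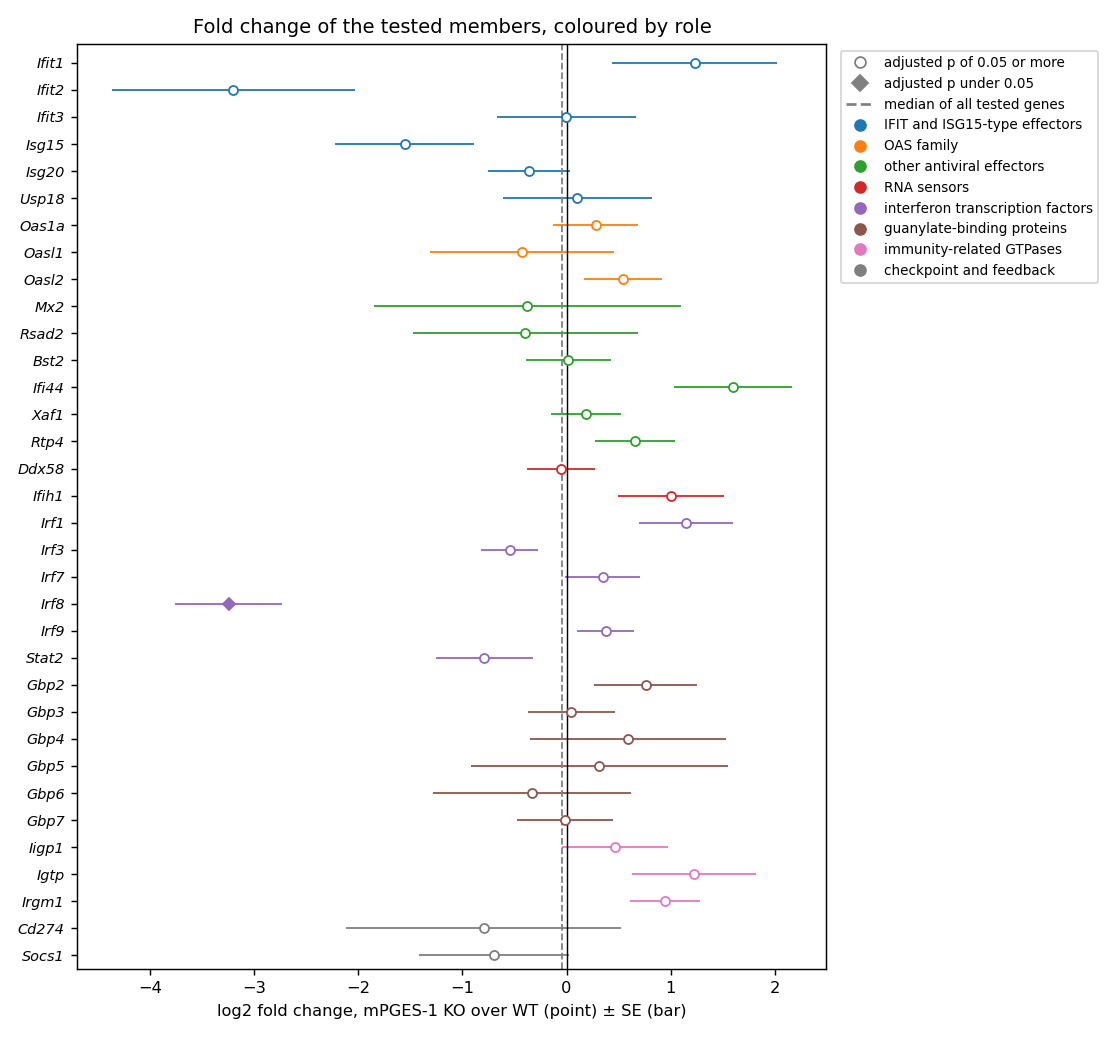
Log2 fold change, mPGES-1 KO over WT, of the 34 tested members (points, horizontal axis) with its standard error (bars), ordered and coloured by role. Irf8, the filled diamond, is the 1 member past the threshold, at -3.24, and the other members lie on both sides of 0.

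The total counts ran from 23013498 to 37249186 in libraries labelled mPGES-1 KO and from 37432510 to 43648450 in libraries labelled WT. Ptges, the gene for mPGES-1, reached 186, 137 and 129 CPM in libraries labelled mPGES-1 KO, against 31.9, 19.2 and 27.9 CPM in libraries labelled WT, so the targeted transcript was higher where its loss would make it lower. A count over the whole gene includes exons outside any deletion, so this level does not check the deletion, and every direction given here is drawn from the labels. Fibroblast markers were present in every library, with a sum over 9 markers of 6343 to 17846 CPM in libraries labelled mPGES-1 KO and of 9756 to 27524 CPM in libraries labelled WT. The fibroblast receptor Pdgfra was at 66.3 to 151 CPM in libraries labelled mPGES-1 KO and at 28.4 to 163 CPM in libraries labelled WT. Markers of other cell types were present too. The sum of 8 endothelial markers was 13.8 to 83.8 CPM in libraries labelled mPGES-1 KO and 57.4 to 277 CPM in libraries labelled WT, with 3 of 8 log2 fold changes positive, and its marker Pecam1 was at 3.69 to 17.7 CPM in libraries labelled mPGES-1 KO and at 0.296 to 6.77 CPM in libraries labelled WT. The luminal keratin Krt8 was at 2268 to 3482 CPM in libraries labelled mPGES-1 KO and at 438 to 589 CPM in libraries labelled WT. The sum of 12 luminal epithelial markers was 16225 to 19096 CPM in libraries labelled mPGES-1 KO and 3474 to 4767 CPM in libraries labelled WT, with 12 of 12 log2 fold changes positive. The sum of 10 pericyte and vascular smooth muscle markers was 151 to 282 CPM in libraries labelled mPGES-1 KO and 2657 to 6633 CPM in libraries labelled WT, with 10 of 10 negative. In bulk RNA, fewer cells of a type and less RNA per cell cannot be told apart, and the part of this mixture in the values that follow was not tested.

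The start sites of 28 members had a promoter window in the RefSeq table of GRCm38.p6, the assembly that mm10 also names, covering 250 bases before and 50 after each start. Mx1, Mx2, Usp18, Rtp4, Gbp4, Gbp6 and Iigp1 had none. The ISRE core was searched as GAAA, then NN for any bases, then GAAA, on both strands and the GAS as TTCNNNGAA, which reads the same on both strands, and matches of the same motif were allowed to overlap. An ISRE core lay in a window of 16 of the 28 members, against 3.99% of the 27025 genes with a window. A GAS lay in a window of 9 of the 28, against 9.55%. Both motifs were found for 5 members and neither for 8. The members are known interferon response genes, so these shares describe the list, and a match is not evidence of a bound site.

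The promoter stretches below run from -180 to -51 relative to the RefSeq start site, 5′ to 3′ on the strand of the gene, and capitals mark each ISRE or GAS match. They are shown because Ifit1, Ifit3, Isg15 and Rsad2 hold the ISRE core, the neighbouring gene Ifit2 holds no match of either motif in this stretch, and Irf1 and Irf8 hold the GAS.
Ifit1, chr19:34640709-34640838, plus strand: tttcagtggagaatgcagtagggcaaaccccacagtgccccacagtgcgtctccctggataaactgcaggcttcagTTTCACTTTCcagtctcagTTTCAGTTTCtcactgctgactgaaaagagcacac
Ifit3, chr19:34583349-34583478, plus strand: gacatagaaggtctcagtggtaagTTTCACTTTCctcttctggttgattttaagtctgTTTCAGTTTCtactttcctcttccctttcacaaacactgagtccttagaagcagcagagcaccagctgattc
Isg15, chr4:156200869-156200998, minus strand: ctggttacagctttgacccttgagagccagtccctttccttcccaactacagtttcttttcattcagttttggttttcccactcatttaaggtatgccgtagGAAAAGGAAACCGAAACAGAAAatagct
Rsad2, chr12:26456503-26456632, minus strand: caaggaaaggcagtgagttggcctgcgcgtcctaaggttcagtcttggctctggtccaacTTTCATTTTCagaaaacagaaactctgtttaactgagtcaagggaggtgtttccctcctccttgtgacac
Ifit2, chr19:34550514-34550643, plus strand: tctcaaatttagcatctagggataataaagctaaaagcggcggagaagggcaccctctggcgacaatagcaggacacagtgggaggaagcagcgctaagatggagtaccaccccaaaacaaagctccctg
Irf1, chr11:53769834-53769963, plus strand: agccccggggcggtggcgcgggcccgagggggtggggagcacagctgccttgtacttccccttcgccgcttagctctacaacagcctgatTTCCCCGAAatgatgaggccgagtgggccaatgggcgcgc
Irf8, chr8:120736178-120736307, plus strand: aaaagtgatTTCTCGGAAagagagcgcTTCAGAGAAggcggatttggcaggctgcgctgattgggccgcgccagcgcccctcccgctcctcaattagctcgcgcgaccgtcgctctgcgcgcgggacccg

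Among the 6 transcription factors of the response, 0 rose, 1 fell and 5 did not pass. The gene for Irf8 lies at chr8:120736358-120756694 on the plus strand (GENCODE M21, GRCm38). Irf8 stood at 6.25, 6.33 and 6.00 CPM in libraries labelled mPGES-1 KO, against 74.8, 77.6 and 23.8 CPM in libraries labelled WT. The libraries labelled mPGES-1 KO were nearly equal and all lay below the lowest WT library, WT replicate 3. The log2 fold change was -3.24 ± 0.51 (SE; edgeR, adjusted p = 0.028). Leaving out replicate 1, 2 or 3 of mPGES-1 KO raised the adjusted p to 0.0754, 0.119 and 0.094, and leaving out WT replicate 2 raised it to 0.119, fits in which 160, 0, 0 and 1 of all genes were called. It was 0.0601 with limma-voom. The 13 alternatives gave log2 fold changes of -3.62 to -2.93, with adjusted p-values of 1.7e-07 to 0.119.

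Pericyte markers, like Irf8, were lower in libraries labelled mPGES-1 KO than in libraries labelled WT. Of the 8 general leukocyte markers 0 passed, with groups that did not overlap for 1 marker higher and 1 lower in libraries labelled mPGES-1 KO. Rgs5, a pericyte marker that damps G protein signals, was at 119.6, 49.9 and 92.7 CPM in libraries labelled mPGES-1 KO, against 2291, 1512 and 858 CPM in libraries labelled WT. Kcnj8, a potassium channel subunit of pericytes that was picked after its values were seen, was at 6.91, 16.2 and 77.6 CPM in libraries labelled mPGES-1 KO and 1109, 1259 and 278.5 CPM in libraries labelled WT. Like Irf8, Kcnj8 was lowest among the WT libraries in WT replicate 3. Within libraries labelled mPGES-1 KO, Kcnj8 ran from 6.91 to 77.6 CPM, whereas Irf8 was nearly even at 6.00 to 6.33 CPM. Ptprc, the pan-leukocyte antigen CD45, did not pass, with 21.5, 15.9 and 59.8 CPM in libraries labelled mPGES-1 KO against 8.15, 3.65 and 8.32 CPM in libraries labelled WT (log2 fold change 2.27 ± 0.65, edgeR adjusted p = 0.109). The sum of 10 macrophage and monocyte markers was 1080, 493 and 2469 CPM in libraries labelled mPGES-1 KO and 1574, 526 and 389.5 CPM in libraries labelled WT, so the groups overlapped, and 0 of the 10 passed. The sum of 8 general leukocyte markers was 254 to 817 CPM in libraries labelled mPGES-1 KO and 456 to 1106 CPM in libraries labelled WT. Of the 8 log2 fold changes, 5 were positive and 3 negative, that of Arhgdib among the negative. Arhgdib, picked after its values were seen, held 27.6 to 147 CPM of it in libraries labelled mPGES-1 KO and 234 to 736 CPM in libraries labelled WT. Of the defining dendritic cell and lymphocyte markers, Flt3, Siglech, Ccr7, Cd8a, Klrb1c, Cd79a and Ms4a1 were each at 0 in at least 1 library. The part of any cell type in the Irf8 difference was not tested.

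**Figure D2:**
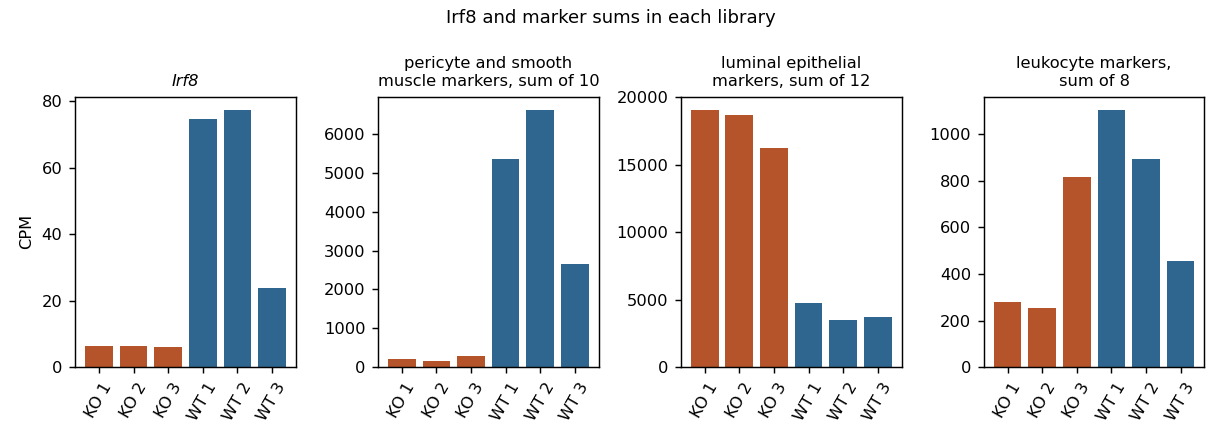
Level of Irf8 and summed levels of 3 marker lists (CPM, linear vertical axes starting at 0) in each library, with mPGES-1 KO bars left of WT bars. Irf8 is at 6.00 to 6.33 CPM in libraries labelled mPGES-1 KO and 23.8 to 77.6 CPM in libraries labelled WT, the pericyte sum is likewise higher in the WT bars, the luminal sum is higher in the mPGES-1 KO bars, and the leukocyte sums overlap.

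Irf1, the factor that carries much of the interferon gamma response, was at 945, 521 and 406 CPM in libraries labelled mPGES-1 KO, against 181, 223 and 440.0 CPM in libraries labelled WT. The ranges overlapped through WT replicate 3, and the log2 fold change of 1.15 ± 0.45 did not pass (adjusted p = 0.221). It was 0.73 without mPGES-1 KO replicate 1. Irf3, which starts interferon production after nucleic acid sensing, was at 69.2, 67.4 and 77.2 CPM in mPGES-1 KO against 81.8, 135 and 95.4 CPM in the WT libraries, groups that did not overlap and a log2 fold change of -0.55 ± 0.28 (adjusted p = 0.345). Irf7, the interferon-induced amplifier of that production, overlapped between the groups at 304, 169.7 and 270.4 CPM in mPGES-1 KO against 136, 163 and 285 CPM in WT. Stat2 and Irf9, which act together in the type I complex, went in opposite directions without passing. Stat2 was at 39.1, 30.3 and 18.6 CPM in mPGES-1 KO against 25.9, 52.8 and 73.5 CPM in WT (log2 fold change -0.79 ± 0.47), and Irf9 at 131, 109 and 136 CPM in mPGES-1 KO against 118, 70.1 and 101 CPM in WT (0.38 ± 0.28).

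In the Ifit and Isg15 group of antiviral effectors, 0 of 6 members passed, although 2 had an unadjusted p under 0.05. Ifit2, an RNA-binding effector of the tetratricopeptide family, was at 1.46, 8.68 and 0.906 CPM in libraries labelled mPGES-1 KO, against 12.4, 9.51 and 79.4 CPM in libraries labelled WT. The groups did not overlap, but mPGES-1 KO replicate 2 came within 1 CPM of WT replicate 2, and the log2 fold change of -3.20 ± 1.17 did not pass in edgeR (adjusted p = 0.189) while it did in DESeq2 (0.0166), in a range of 0.0166 to 0.631 over 13 alternatives. Its neighbour on chromosome 19, Ifit1, which recognises the ends of viral RNA, lay on the other side of 0. Ifit1 was at 410.2, 78.4 and 149 CPM in libraries labelled mPGES-1 KO and 53.5, 30.7 and 187 CPM in libraries labelled WT (1.23 ± 0.79, adjusted p = 0.469). The log2 fold change of Ifit1 was 0.34 without mPGES-1 KO replicate 1 and 2.33 without WT replicate 3, and that of Ifit2 was -1.58 without WT replicate 3. Ifit3, the partner that stabilises Ifit1 in human cells, had a mean of 50.9 CPM in both groups. The libraries differed all the same, at 92.2, 43.8 and 16.7 CPM in mPGES-1 KO against 63.1, 20.7 and 68.9 CPM in WT. Ifit1, Ifit2 and Ifit3 were thus highest in different libraries, Ifit1 and Ifit3 in mPGES-1 KO replicate 1 and Ifit2 in WT replicate 3.

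Isg15, a ubiquitin-like protein that is joined to other proteins in the response, was at 79.5, 28.5 and 44.9 CPM in libraries labelled mPGES-1 KO, against 44.9, 118 and 287 CPM in libraries labelled WT. The groups overlapped between 44.9 and 79.5 CPM, and the log2 fold change of -1.56 ± 0.67 did not pass (adjusted p = 0.26). It was -0.68 without WT replicate 3. Usp18, the protease that removes Isg15 and damps the type I receptor, was at 77.1, 35.5 and 93.6 CPM in mPGES-1 KO against 17.9, 38.7 and 135 CPM in WT, and WT replicate 3 was again the highest library. Isg20, an exonuclease that degrades RNA, was at 32.6, 21.4 and 56.4 CPM in libraries labelled mPGES-1 KO and was more even, at 46.0, 44.5 and 51.1 CPM, in libraries labelled WT.

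The 3 members of the oligoadenylate synthetase family, which activate RNase L or are related to enzymes that do, did not pass either. Oasl1, known in mice as a brake on Irf7 translation, was at 41.6, 17.0 and 28.7 CPM in libraries labelled mPGES-1 KO, against 6.74, 16.1 and 94.7 CPM in libraries labelled WT. The WT libraries spanned 14.1-fold and libraries labelled mPGES-1 KO 2.45-fold. Its log2 fold change of -0.43 ± 0.89 became 1.35 without WT replicate 3. Oasl2 was at 222, 90.2 and 139 CPM in mPGES-1 KO against 130.1, 99.3 and 79.6 CPM in WT, and Oas1a at 74.9, 47.9 and 79.4 CPM in mPGES-1 KO against 79.7, 29.4 and 57.6 CPM in WT.

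Of the 7 other antiviral effectors, 6 were tested and 0 passed. Ifi44, an interferon-induced cytoplasmic protein, was at 102, 57.3 and 128 CPM in libraries labelled mPGES-1 KO, against 57.2, 12.8 and 24.95 CPM in libraries labelled WT. The groups did not overlap, by a margin of 57.3 over 57.2 CPM, and the log2 fold change of 1.6 ± 0.57 missed the threshold in edgeR (adjusted p = 0.179) but not in DESeq2 (0.036) or limma-voom (0.0299), in a range of 0.0299 to 0.384 over 13 alternatives. Rsad2, which encodes the antiviral enzyme viperin, had the widest spread among WT libraries of the members with more than 3 counts in each of them. It was at 111, 27.0 and 50.5 CPM in libraries labelled mPGES-1 KO and 21.1, 9.16 and 218 CPM in libraries labelled WT, a 23.8-fold span within WT. Its log2 fold change of -0.40 ± 1.08 became 2.06 without WT replicate 3 (adjusted p = 0.251).

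Mx1, a dynamin-like GTPase whose allele is defective in most inbred mouse strains, was too sparse to be tested. It had 0, 1 and 0 counts in libraries labelled mPGES-1 KO and 0, 48 and 1198 counts in libraries labelled WT, so nearly all its reads came from WT replicate 3. Mx2, its paralog, was at 27.4, 14.1 and 0.0566 CPM in mPGES-1 KO against 9.61, 4.33 and 40.03 CPM in WT, with 2 counts in mPGES-1 KO replicate 3. Both Mx genes were highest in WT replicate 3. Bst2 (tetherin, which holds budding virus at the cell surface), Rtp4 and Xaf1 varied less, and their groups overlapped. Bst2 was at 304, 114 and 286 CPM in mPGES-1 KO against 180.0, 208 and 307 CPM in WT, and Rtp4 at 319, 162 and 276 CPM in mPGES-1 KO against 200.4, 92.8 and 186 CPM in WT. Xaf1, a partner of the apoptosis inhibitor XIAP, was at 98.9, 64.0 and 113 CPM in mPGES-1 KO against 71.1, 61.0 and 110.0 CPM in WT.

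**Figure D3:**
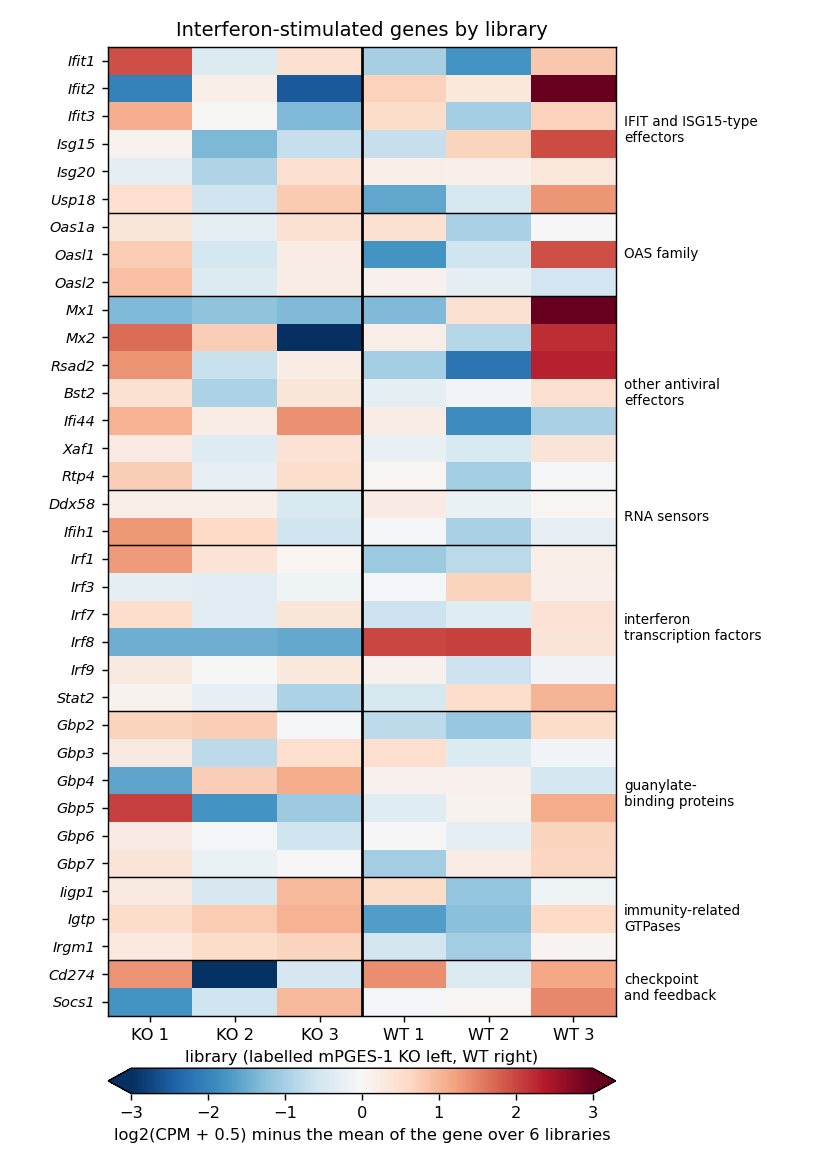
Level of the 35 members (rows, grouped by role) in each library (columns, mPGES-1 KO left of WT), as log2(CPM + 0.5) minus the mean of the gene over the 6 libraries, with red above and blue below that mean. Irf8 splits by group, whereas Isg15, Rsad2, Oasl1, Mx1 and Mx2 are reddest in WT replicate 3, and Ifit1, Ifih1 and Irf1 in mPGES-1 KO replicate 1.

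The 2 cytoplasmic RNA sensors did not pass. Ifih1, which encodes the long double-stranded RNA sensor MDA5, was at 101, 62.1 and 26.8 CPM in libraries labelled mPGES-1 KO, against 39.7, 20.6 and 34.3 CPM in libraries labelled WT (log2 fold change 1.00 ± 0.51, adjusted p = 0.346). Ddx58, which encodes RIG-I, was at 43.2, 42.5 and 27.2 CPM in mPGES-1 KO against 44.6, 33.0 and 39.5 CPM in WT. The groups overlapped, and the log2 fold change was -0.05 ± 0.33.

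The interferon gamma-type GTPases were called in neither direction. All 3 immunity-related GTPases, which attack the vacuoles of intracellular pathogens, had positive log2 fold changes. Irgm1, the regulator of the family, was at 107, 128 and 139.6 CPM in libraries labelled mPGES-1 KO, against 59.6, 42.2 and 92.9 CPM in libraries labelled WT. These groups did not overlap, and the log2 fold change of 0.94 ± 0.34 did not pass (adjusted p = 0.18). Igtp, another regulatory GTPase, was at 73.6, 84.9 and 103 CPM in mPGES-1 KO against 15.4, 20.6 and 76.1 CPM in WT (1.22 ± 0.59, adjusted p = 0.323), where WT replicate 3 alone reached the range of libraries labelled mPGES-1 KO. Without WT replicate 3 its log2 fold change was 2.27 (adjusted p = 0.0518). Iigp1, an effector GTPase, overlapped between the groups at 171, 102 and 278 CPM in mPGES-1 KO against 207, 62.3 and 129.9 CPM in WT.

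Of the 6 guanylate-binding proteins, which coat the same vacuoles and help start inflammasome signalling, 0 passed and 0 had groups that did not overlap. Gbp2 was at 88.1, 92.0 and 52.5 CPM in libraries labelled mPGES-1 KO, against 31.5, 24.9 and 81.1 CPM in libraries labelled WT (0.76 ± 0.49). Gbp3 was at 59.4, 28.5 and 70.2 CPM in mPGES-1 KO against 69.7, 36.7 and 46.7 CPM in WT. Gbp7 was at 46.8, 30.6 and 35.2 CPM in mPGES-1 KO against 16.9, 41.3 and 55.5 CPM in WT. The mean levels of Gbp3 and Gbp7 differed little between the groups, at 52.7 CPM in mPGES-1 KO and 51.0 CPM in WT for Gbp3, and 37.5 CPM in mPGES-1 KO and 37.9 CPM in WT for Gbp7. Gbp4, Gbp5 and Gbp6 were scarce, between 0.796 and 18.0 CPM in libraries labelled mPGES-1 KO and between 2.64 and 9.11 CPM in libraries labelled WT. Gbp5 varied most, at 18.0, 0.796 and 1.59 CPM in libraries labelled mPGES-1 KO and 2.96, 4.33 and 9.11 CPM in libraries labelled WT. Its log2 fold change of 0.31 ± 1.23 became -2.18 without mPGES-1 KO replicate 1.

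Cd274 and Socs1, an immune checkpoint ligand (PD-L1) and a feedback inhibitor of the Janus kinases, both had negative log2 fold changes that did not pass. Socs1 was at 14.4, 33.8 and 99.9 CPM in libraries labelled mPGES-1 KO, against 48.9, 52.8 and 139 CPM in libraries labelled WT (-0.70 ± 0.72, adjusted p = 0.674). Cd274 was at 12, 0.126 and 2.95 CPM in mPGES-1 KO against 12.5, 3.17 and 10.5 CPM in WT (-0.80 ± 1.32, adjusted p = 0.815), with 3 counts in mPGES-1 KO replicate 2. The spread within each group was wider than the gap between the means for both genes.

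**Figure D4:**
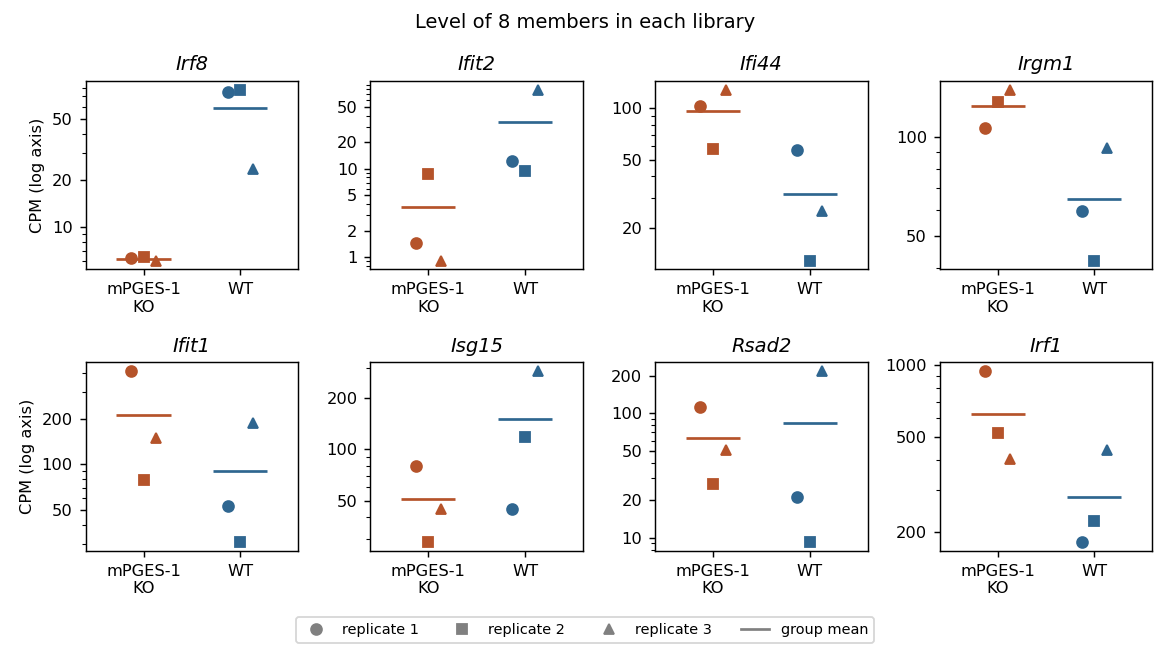
Level of 8 members in CPM (log vertical axes) in each library, with mPGES-1 KO left of WT, marker shapes for replicates and lines for group means. In the upper row the groups do not overlap (Irf8, Ifit2, Ifi44 and Irgm1), and in the lower row they do (Ifit1, Isg15, Rsad2 and Irf1).

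The groups did not overlap for 5 of the 34 tested members, or 14.7%, where 27.9% of all tested genes had groups that did not overlap. Irf8, Ifit2 and Irf3 were lower in all 3 libraries labelled mPGES-1 KO, and Ifi44 and Irgm1 were higher. Differences between libraries of the same group were wide. The median over the tested members of the SD of log2(CPM + 0.5) was 0.64 within mPGES-1 KO and 0.76 within WT. Over all tested genes it was 0.57 within mPGES-1 KO and 0.58 within WT. WT replicate 3 was the highest of the 6 libraries for 11 of the 34 tested members (32.4%), against 18.6% of all tested genes. These were Ifit2, Isg15, Stat2, Oasl1, Mx2, Rsad2, Bst2, Usp18, Gbp6, Gbp7 and Socs1. mPGES-1 KO replicate 3 was highest for 9 members (26.5%, against 17.2% of all), among them Ifi44, Iigp1, Igtp and Irgm1, and mPGES-1 KO replicate 1 for 8 (23.5%, against 16.3%), among them Ifit1, Irf1, Irf7 and Ifih1. WT replicate 2 was the lowest library for 11 of the 34 tested members (32.4%), against 11.3% of all tested genes. An ISRE core lay in the window of 6 of the 8 members with a window that were highest in WT replicate 3. The same held for 4 of 7 highest in mPGES-1 KO replicate 1 and 3 of 7 in mPGES-1 KO replicate 3. It held for 2 of 3 highest in WT replicate 1, 1 of 1 in mPGES-1 KO replicate 2 and 0 of 2 in WT replicate 2. This grouping was made from the levels themselves and is a description with no test.

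Per kilobase of exon, Bst2 was the highest member in both groups, with a mean level of 260.2 CPM per kilobase in libraries labelled mPGES-1 KO and 256.8 in libraries labelled WT. It was followed by Irf1 at 156.9, Rtp4 at 118 and Ifit1 at 80.0 CPM per kilobase in libraries labelled mPGES-1 KO, and by Isg15 at 198, Rtp4 at 75.0 and Irf1 at 70.7 in libraries labelled WT. Gbp6 was the lowest tested member in mPGES-1 KO at 0.510 CPM per kilobase, against 0.641 in WT, and Gbp4 the lowest in WT, at 0.942 in mPGES-1 KO against 0.626 in WT. Irf8 was at 0.878 CPM per kilobase in mPGES-1 KO and 8.33 in WT. Some members share sequence with a near-identical gene, among which reads may be divided. Of all 75-base stretches in the annotated transcripts, 41.1% of those of Ifit3 also occur in Ifit3b, 47.6% of those of Oas1a in Oas1g and 67.3% of those of Gbp6 in another gene, so the values of these 3 members are uncertain. The share was at most 11.3% for every other member, the level of Gbp7.

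The rest of the interferon pathway was described with 5 lists of other genes, and it held called genes in both directions. Of 15 receptor and signalling genes, 2 rose, 1 fell and 12 did not pass (median log2 fold change -0.04). The share called was 20%, against 2.76% of all tested genes, and the groups did not overlap for 53.3%, against 27.9% of all tested genes. Ifnlr1, the receptor chain for interferon lambda that is known mainly from epithelial cells, rose to 15.1, 15.9 and 23.6 CPM in libraries labelled mPGES-1 KO, against 2.28, 1.11 and 0.961 CPM in libraries labelled WT (3.65 ± 0.69, adjusted p = 0.0383). The luminal epithelial marker Epcam was likewise at 3743 to 4899 CPM in libraries labelled mPGES-1 KO and at 338 to 633 CPM in libraries labelled WT, and its part in the Ifnlr1 value was not tested. Ptpn2, a phosphatase that switches off Jak1, rose to 325, 397 and 376 CPM in mPGES-1 KO against 135, 60.2 and 84.7 CPM in WT (1.97 ± 0.34, adjusted p = 0.031). Socs3, a feedback inhibitor best known from the interleukin-6 receptor, fell to 266, 147 and 188 CPM in mPGES-1 KO against 729, 777 and 952 CPM in WT (-2.03 ± 0.31, adjusted p = 0.0247).

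These 3 calls were lost without mPGES-1 KO replicate 2, without mPGES-1 KO replicate 3, without WT replicate 2 and without WT replicate 3, where the adjusted p ran from 0.063 to 0.16 and 0, 0, 1 and 150 of all genes were called. Those of Ptpn2 and Ifnlr1 were also lost without mPGES-1 KO replicate 1 (0.0647 for Ptpn2 and 0.0812 for Ifnlr1), and over 13 alternatives the adjusted p ran from 3.6e-06 to 0.117 for Ptpn2, from 2.35e-07 to 0.16 for Ifnlr1 and from 2.65e-07 to 0.106 for Socs3. The log2 fold change ran from 1.80 to 2.38 for Ptpn2, from 3.42 to 4.15 for Ifnlr1 and from -2.28 to -1.82 for Socs3 over the same alternatives. The receptor chains for type I interferon and interferon gamma did not pass. Ifnar1 and Ifnar2 had groups that did not overlap, both lower in libraries labelled mPGES-1 KO, with log2 fold changes of -0.88 ± 0.36 and -0.66 ± 0.29 (adjusted p = 0.238 and 0.279). Ifngr1 and Ifngr2 had log2 fold changes of -0.04 ± 0.35 and -0.11 ± 0.31.

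Of 18 tested genes that sense nucleic acids upstream of interferon, 0 passed in edgeR. The unadjusted edgeR p was under 0.05 for 3 of the 18, and for 19.1% of all tested genes. DESeq2 called 3 of the 18, where it called 13.6% of the genes it adjusted. Tbk1, the kinase that activates Irf3, was at 70.5, 63.2 and 44.8 CPM in libraries labelled mPGES-1 KO, against 24.6, 31.97 and 17.5 CPM in libraries labelled WT (1.27 ± 0.35, adjusted p = 0.105). Tlr3, the endosomal sensor of double-stranded RNA, was at 27.1, 17.7 and 16.2 CPM in mPGES-1 KO against 5.08, 6.21 and 7.47 CPM in WT (1.70 ± 0.51, adjusted p = 0.118). Aim2, a cytoplasmic DNA sensor, was at 0, 0.0838 and 0.170 CPM in mPGES-1 KO against 3.76, 3.17 and 1.65 CPM in WT. In all 3 genes the groups did not overlap, as in 22.2% of this list and 27.9% of all tested genes.

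Of the 14 symbols of the interferon list, 2 were in the count table, Ifnb1 and Il27. The other symbols, among them Ifng, have no value here. Transcripts of an interferon itself, Ifnb1, were counted in 2 libraries. Ifnb1, which encodes interferon beta and is named here after its values were seen, had 135, 0 and 979 counts in libraries labelled mPGES-1 KO and 0 counts in each library labelled WT, too few libraries for the test. In an edgeR fit with no filter its adjusted p was 0.14. Il27, a cytokine of myeloid cells and the 1 tested gene of this list, was at 0, 0.377 and 7.84 CPM in libraries labelled mPGES-1 KO and 0, 0.453 and 0 CPM in libraries labelled WT (edgeR adjusted p = 0.48). A count of 0 allows up to 3 counts, or 0.0683 to 0.0824 CPM in the WT libraries and 0.126 CPM in mPGES-1 KO replicate 2, against 4.94 and 27.7 CPM in mPGES-1 KO replicates 1 and 3. WT replicate 3, the highest library for the most members, had 0 Ifnb1 counts. mPGES-1 KO replicate 3 also held the highest sums of macrophage markers, at 2469 CPM, and of lymphocyte markers, at 298 CPM. The lymphocyte sum was 12.9 to 50.5 CPM in the other 5 libraries. mPGES-1 KO replicate 1, which had 135 Ifnb1 counts, held 1080 CPM of macrophage and 24.7 CPM of lymphocyte markers. WT replicate 1, which had 0 Ifnb1 counts, held 1574 CPM of macrophage and 31.2 CPM of lymphocyte markers. The part of these cell types in the Ifnb1 counts was not tested.

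Among 50 other type I interferon-stimulated genes, 0 rose, 1 fell and 49 did not pass, with a median log2 fold change of 0.36. The log2 fold change was positive for 31 and negative for 19. The groups did not overlap for 30% of this list, against 27.9% of all tested genes. Without overlap, 12 of the 50 genes were higher and 3 of the 50 lower in libraries labelled mPGES-1 KO. Of all tested genes 12.2% were higher and 15.7% lower in this way. The share higher was thus larger in this list and the share lower smaller, a difference that was not tested. Ifitm1, a membrane protein that blocks virus entry, fell to 55.9, 24.0 and 23.1 CPM in libraries labelled mPGES-1 KO, against 342, 478 and 273 CPM in libraries labelled WT (-3.41 ± 0.45, adjusted p = 0.0177). Among 25 other interferon gamma-induced genes, 1 rose, 0 fell and 24 did not pass, with a median of -0.08. Gch1, the first enzyme of tetrahydrobiopterin synthesis, rose to 151, 197 and 240.0 CPM in mPGES-1 KO against 18.8, 24.5 and 37.8 CPM in WT (2.86 ± 0.36, adjusted p = 0.0171). Both calls were lost when mPGES-1 KO replicate 2 was left out (adjusted p = 0.102 for Ifitm1 and 0.0881 for Gch1), as when mPGES-1 KO replicate 3 (0.0724 for Ifitm1 and 0.0677 for Gch1) or WT replicate 2 (0.0782 for Ifitm1 and 0.0827 for Gch1) was. Those fits called 0, 0 and 1 of all genes. Over 13 alternatives the log2 fold change ran from -3.95 to -3.10 for Ifitm1 and from 2.69 to 3.18 for Gch1, and the adjusted p from 3.57e-11 to 0.102 for Ifitm1 and from 1.54e-11 to 0.0881 for Gch1. The shares called, 2% and 4% of these lists, stood beside 2.76% of all tested genes. Of the 50 other type I genes, 13 were highest in mPGES-1 KO replicate 1, 13 in mPGES-1 KO replicate 3 and 14 in WT replicate 3 (28%, against 18.6% of all tested genes). WT replicate 3 was highest for 0 of the 18 sensing genes and 5 of the 25 interferon gamma genes. Cmpk2, the genomic neighbour of Rsad2 in mice and picked after its values were seen, was at 17.0, 24.3 and 1.501 CPM in libraries labelled mPGES-1 KO and 21.8, 12 and 187 CPM in libraries labelled WT.

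**Figure D5:**
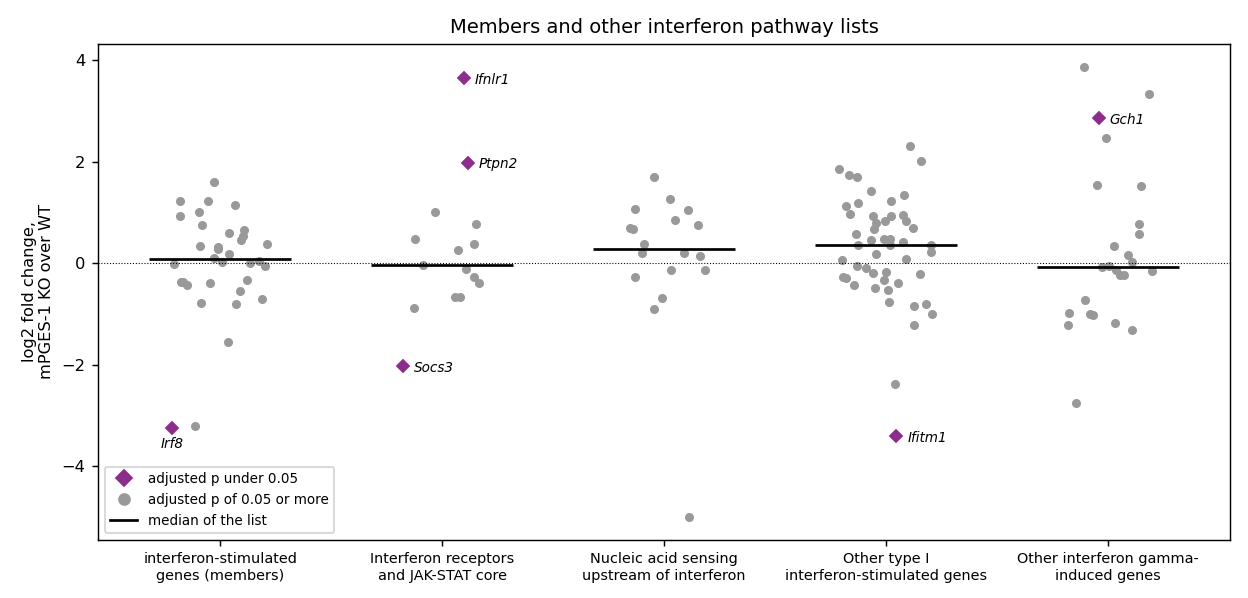
Log2 fold change, mPGES-1 KO over WT (vertical axis), of each tested gene of the interferon-stimulated genes and of 4 other lists of the pathway, with horizontal lines at list medians; horizontal positions within a list are arbitrary. Named diamonds are the genes past the threshold, 1 among the interferon-stimulated genes and 5 in the other lists, and the medians lie between -0.08 and 0.36.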

How the data were processed

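RNA-seq counts of 6 libraries were used. Per the labels' protocols, cDNA was made with a template-switching kit, amplified by 16 PCR cycles and read as single reads of 75 cycles. These steps mark no strand and no molecule. The authors deposited unnormalized read counts, 1 whole number per symbol and library. FastQC 0.11.5, STAR and mm10 were named, per the submitters' processing notes. The sources used here do not name the counting program, its annotation or a filter.

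The test was edgeR 4.0.16 under R 4.3.3 (filterByExpr, TMM, robust glmQLFit and glmQLFTest, two-sided) on 16543 genes over all 6 libraries with no covariate. A gene was called at a Benjamini-Hochberg adjusted p under 0.05 over all tested genes. Standard errors are the absolute log2 fold change over the square root of F, and CPM are counts over TMM-scaled totals. The fit was tested on simulated data. Limits for a count of 0 cover counting error only. Alternatives were other scalings and filters, DESeq2 1.42.0, a block on replicate number, quality-weighted limma-voom (limma 3.58.1), and each library left out.

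Exon lengths and shared stretches come from GENCODE M21 on GRCm38, promoter sequences from RefSeq on GRCm38.p6. The members and lists were chosen with earlier results of these data known. Named genes are all members, nearly all given in every library (Gbp4 and Gbp6 as ranges) rather than only those of smallest p or highest level as first planned, the called genes of each pathway list or else the 3 of smallest p, Ptges and 6 cell type markers. Ifnar1, Ifnar2, Ifngr1, Ifngr2, Ifnb1, Kcnj8, Arhgdib and Cmpk2 were added after their values were seen. Some items are not reported here.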

Additional observations from a re-analysis of the deposited data

How the results depend on the processing

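Of the 34 tested members, 20 kept their direction and side of the threshold under all 13 alternatives, 23 kept their direction and 31 were never called. The Irf8 call was lost with limma-voom (log2 fold change -3.12) and with the replicate number as a block (-3.07), and the adjusted p ran from 0.0227 to 0.119 with 1 library left out. Ifit2 and Ifi44 were called under some alternatives. Members called higher numbered 1 with DESeq2 and 1 with limma-voom. Members called lower numbered 2 with DESeq2, 0 with limma-voom, 0 with the block and 0 to 1 with 1 library left out. All genes called numbered 456, and 2093 with DESeq2, 1965 with limma-voom, 0 with the block and 0 to 568 with 1 library left out. Receptor and signalling genes called numbered 0 with the block and 0 to 3 with 1 library left out. Sensing genes numbered 3 with DESeq2 and 2 with limma-voom. Other type I genes numbered 2 with a minimum of 1 CPM, 6 with DESeq2, 6 with limma-voom, 0 with the block and 0 to 3 with 1 library left out. Other interferon gamma genes numbered 4 with DESeq2, 5 with limma-voom, 0 with the block and 0 to 1 with 1 library left out.

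The log2 fold change changed sign for 11 members, none of them called. Ifit3 gave 0.061 with DESeq2 size factors, 0.0584 with no filter, 0.0572 with a minimum of 1 CPM, 0.0611 with DESeq2 and 0.338 with limma-voom. Gbp7 gave 0.0388 with size factors, 0.023 with no filter, 0.0199 with the 1 CPM minimum, 0.0388 with DESeq2 and 0.104 with the block. Bst2 gave -0.0213 with library size only, -0.346 with limma-voom and -0.071 with the block. With limma-voom Rsad2 gave 0.862, Ddx58 0.0859 and Gbp5 -1.26. With the block Oasl1 gave 0.279, Mx2 0.022, Rsad2 0.789, Gbp3 -0.00353 and Gbp5 -1.13. With 1 library left out the ranges were -0.75 to 0.421 for Ifit3, -0.881 to 1.35 for Oasl1, -1.35 to 0.986 for Mx2, -1.08 to 2.06 for Rsad2, -0.204 to 0.379 for Bst2, -0.302 to 1.28 for Usp18, -0.159 to 0.136 for Ddx58, -0.213 to 0.38 for Gbp3, -2.18 to 0.894 for Gbp5, -0.559 to 0.0223 for Gbp6, -0.336 to 0.365 for Gbp7 and -0.301 to 0.777 for the marker Pdgfra. The cause of these changes was not tested.

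Libraries with the same replicate number did not deviate together (correlations of -0.06, 0.03 and -0.02). Correlations over so few libraries cannot exclude a pairing, and the labels do not say whether the numbers pair the samples. With 3 libraries a group and the spread seen here, a change that was not called is not shown to be absent.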
